A study of Paxillus involutus and Laccaria bicolor with 24 samples.

Results

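*Laccaria bicolor* is a basidiomycete that forms ectomycorrhiza with forest trees, and its transcriptome was compared here between ammonium depletion (t2, day 13) and active growth (t1, day 2). The comparison used the 14352 gene models with a mean of at least 11 counts over the 12 *L. bicolor* libraries, out of 23130 models of this fungus and 41098 models in the series, which also holds *Paxillus involutus*. The *L. bicolor* cultures were of strain S238N (labelled Maire P.D.Orton) and grew on a hot-water extract of soil organic matter (SOM) from a Norway spruce forest, to which glucose had been added. At t1 the extract still contained glucose and ammonium, while at t2 ammonium was gone and glucose remained. Glucose was depleted at t3 (day 23), and t4 (day 30) was a prolonged period without it. There were 3 replicate cultures at each time point. Just before the extract was added, the mycelium had been kept in medium without nitrogen. The t1 and t2 mycelia differ by 11 days of culture as well as in their nitrogen supply. The paper also reports growth of the mycelium and increasing oxidation of lignin residues over this interval. Age, nitrogen supply and these other changes cannot be told apart in these 6 libraries. All levels are relative to the reads of a library, so total RNA was not measured. In these bulk samples, fewer cells expressing a model and less of its RNA per cell likewise cannot be told apart.

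Its hyphae grow out from colonised root tips and explore the soil for mineral nutrients. Much of the nitrogen in boreal forest soil is bound in organic matter, from which it has to be released before uptake. Ammonium is a preferred nitrogen source of many fungi. In yeasts and moulds, a good supply of it represses genes for the use of other nitrogen sources, and this repression ends when the supply fails. Gene models are referred to by identifiers, some of which carry a label. The annotation used here was that of *P. involutus*, and 0 of the 23130 *L. bicolor* models could be paired with a gene name in it. Lists of transporters, peptidases and other functional classes were therefore not analysed, and the label of active growth could not be checked against marker genes. The text names 4 models, namely the largest rise and the largest fall in fold within the top 20% by CPM (at t2 and at t1, respectively) and the largest gain and loss of CPM, and 1 group whose identifiers carry a shared label.

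The 6 libraries held between 10797314 and 12169575 counted reads, and at least 99.9% of each library's reads fell on the tested models. Replicates were close to each other. On log2 CPM (counts scaled to a common library size by TMM), the distance between libraries was 31.0 to 34.0 within t1 and 29.4 to 33.7 within t2, against 64.8 to 71.1 between t1 and t2. The biological coefficient of variation common to all models was 0.043 at t1 and 0.068 at t2. Replicate 3 of t2 stood apart from the other t2 libraries. It lay nearer to t1 (mean distance 66.7, against 69.0 and 69.4 for replicates 1 and 2) and farther from t3 (72.6, against 64.4 for both others). Without it the coefficient of variation at t2 was 0.048.

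Between t1 and t2 a large part of the transcriptome changed by small amounts. A model was called when edgeR's quasi-likelihood test gave an adjusted p (Benjamini-Hochberg) under 0.01. In total, 2576 models rose (17.9% of those tested) and 2709 fell (18.9%). The sizes were moderate, since the median log2 fold change was 0.61 among the risers and -0.45 among the fallers, and 175 risers and 336 fallers changed by less than 1.2-fold. The median over all tested models was 0.01. Without replicate 3 of t2, 2389 models rose and 2544 fell.

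Large changes were mostly increases. At least 2-fold rises were found for 575 models (4.01%) and falls of that size for 249 (1.73%). The imbalance was greater further out. A log2 change of 2 to 3 was seen in 80 rising and 24 falling models, and one of 3 or more in 26 rising and 2 falling models. Between 0 and 0.5 the order was the opposite, with 960 rising and 1577 falling models. Of the 575 strong risers, 573 had all 3 t2 libraries above all 3 t1 libraries, and 248 of the 249 strong fallers were separated in the other direction. Among all tested models, 27.7% were separated upwards and 27.3% downwards. The same libraries chose the strong risers and fallers, so their separation is largely built in and only describes them. No tested model was without reads at either time point, and only 14 had fewer than 10 reads over the t1 libraries and 5 over the t2 libraries. The large changes therefore took place almost entirely in models with reads at both stages. With the authors' deposited factors, which adjust each model and library for transcript length, GC content and depth, 572 models rose and 328 fell at least 2-fold, of which 397 and 175 were the same models as with TMM. In the deposited rlog values, which come from the same reads, 573 of the 575 strong risers and 248 of the 249 strong fallers differed in the same direction. The differences were smaller there. Their medians were 0.60 for the strong risers and -0.68 for the strong fallers, against log2 fold changes of 1.37 and -1.26 with TMM.

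**Figure D1:**
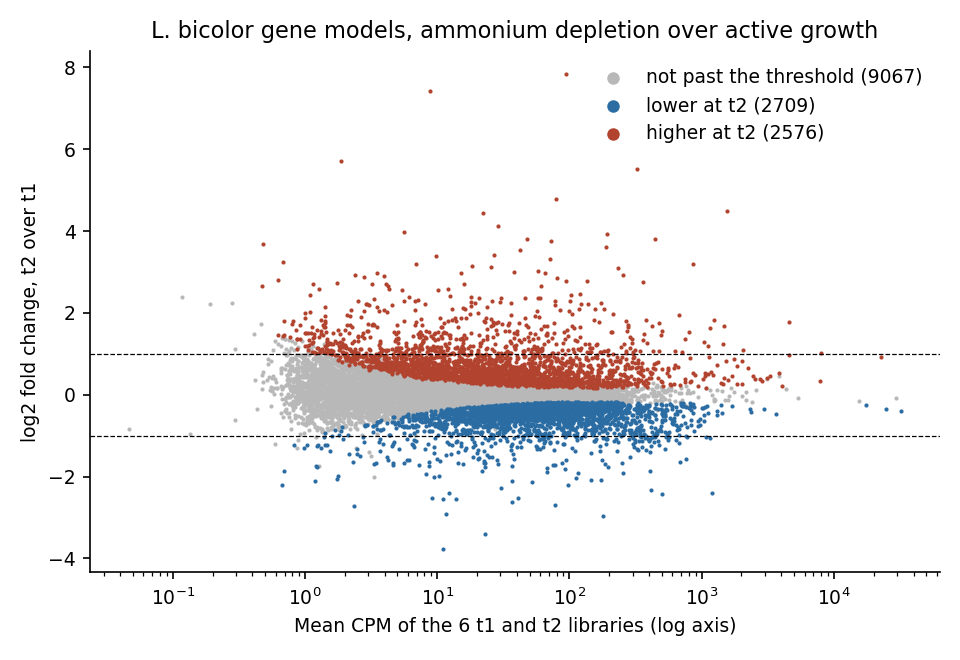
log2 fold change from t1 to t2 (y axis) against the mean CPM of the 6 libraries (x axis, log scale) for the 14352 tested *L. bicolor* gene models, with 2-fold limits as dashed lines. Red points (2576) were higher and blue points (2709) lower at t2 at an adjusted p under 0.01, and the cloud extends further upwards (26 models at a log2 change of 3 or more) than downwards (2 models).

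Rising and falling models sat at different levels of expression. The median level of risers was 20.02 CPM at t1 and 31.8 CPM at t2, and that of fallers was 66.0 and 47.7 CPM, so that fallers were the more abundant at both stages. When the tested models were divided into quintiles by mean CPM over the 12 libraries, the share that fell went from 2.54% in the lowest quintile to 33.8% in the highest. The share that rose went from 7.63% to 24.9%. Precision changed along the same scale. The median standard error of the log2 fold change was 0.26 in the lowest quintile and 0.060 in the highest, so that small changes could be called only among well-expressed models. The strong changes followed the level less. At least 2-fold rises made up 4.63% of the lowest quintile, 3.28% of the middle quintile and 5.02% of the highest. For falls of that size the shares were 1.43%, 1.57% and 2.93%.

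**Figure D2:**
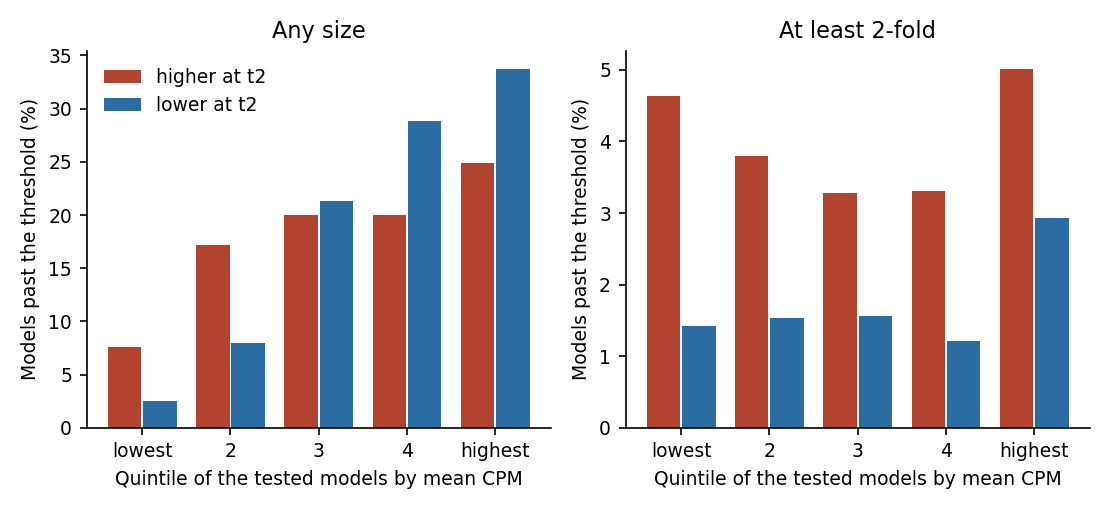
Percent of tested models called higher (red) or lower (blue) at t2 in each quintile of the tested models by mean CPM, for changes of any size (left) and of at least 2-fold (right). Falls of any size climb from 2.54% to 33.8% with level, while strong rises stay between 3.28% and 5.02%.

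The called models also took different shares of the reads at t1 and t2. The 2576 risers held 19.7% ± 0.54 (SD, n = 3) of the counts at t1 and 32.2% ± 0.56 at t2. The fallers went from 42.3% ± 0.79 to 29.9% ± 0.24. These shares are descriptions, as the same libraries chose the models. The strong risers together held 2.67% ± 0.19 at t1 and 7.71% ± 0.30 at t2, and the strong fallers 4.46% ± 0.17 and 1.82% ± 0.034. The gain was concentrated in fewer models than the loss. Of all CPM gained by risers, 50% was gained by 46 models, while 150 models made up 50% of the CPM lost by fallers. These counts rest on TMM scaling and were not repeated with the authors' factors. The t3 and t4 libraries did not enter the choice of models by their own contrast, but their spread entered the fit. The strong risers held 8.02% ± 0.10 of the counts at t3 and 7.47% ± 0.070 at t4. The strong fallers held 1.55% ± 0.020 and 1.52% ± 0.013. Both groups thus stayed near their t2 share.

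**Figure D3:**
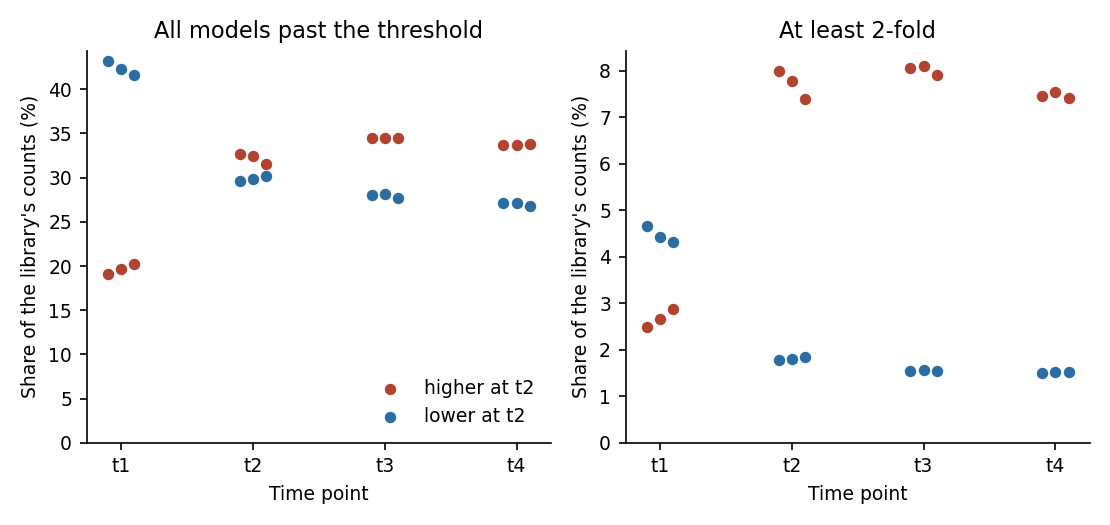
Percent of each library's counts that fell on the models called higher (red) or lower (blue) at t2, for all called models (left) and those changed at least 2-fold (right). Each point is 1 library, and at t3 and t4 the strong risers (7.47% to 8.02% on average) and strong fallers (1.52% to 1.55%) remain near their t2 values.

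Among well-expressed models, e_gw1.18.261.1 had the largest rise. It received 11, 9 and 7 reads in the t1 libraries, which is 1.02, 0.76 and 0.67 CPM, and 2447, 3004 and 986 reads at t2, which is 207, 267 and 88.8 CPM. Replicate 3 of t2 was well below the other t2 libraries. The rule for named models required that t1 and t2 libraries did not overlap, so their separation is built in. The log2 fold change was 7.83 ± 0.42 (SE; edgeR, adjusted p = 1.3e-12), and the model moved from rank 14077 to rank 805 of the tested models. Without replicate 3 of t2 the log2 fold change was 8.16. With the authors' factors it was 7.95, while the mean of the deposited rlog values differed by 3.05. The size of the fold change rests on few reads at t1. Later the level was 149 ± 17.5 CPM (SD, n = 3) at t3 and 41.7 ± 2.60 at t4, still above every t1 library.

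The largest gain in abundance belonged to Lacbi1.eu2.Lbscf0029g00760. Its t1 libraries had 14728, 15717 and 16135 CPM, and its t2 libraries had 30650, 30801 and 27393 CPM. With a log2 fold change of 0.93 ± 0.058 (SE; edgeR, adjusted p = 1.1e-11), it moved from rank 6 to the most abundant model at t2, and it held 10.98% of all CPM gained by risers. The level was 28834 ± 1040 CPM at t3 and 20213 ± 82.3 at t4. This change depended on the scaling. With the authors' deposited factors per gene and library in place of TMM, the log2 fold change of Lacbi1.eu2.Lbscf0029g00760 was -0.10 (edgeR, adjusted p = 0.68), and the mean of its deposited rlog values differed by only -0.07 between t2 and t1.

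Among well-expressed models, the deepest fall was that of estExt_fgenesh1_kg.C_150006. It had 347, 302 and 303 CPM at t1 and 40.6, 43.0 and 39.1 CPM at t2, with little spread at either stage. The lack of overlap was required by the rule for named models and only describes it. The log2 fold change was -2.96 ± 0.089 (SE; edgeR, adjusted p = 2.1e-16), a 7.76-fold decrease. It was -3.58 with the authors' factors, and the mean of the deposited rlog values differed by -2.31. The decline went on to 26.0 ± 5.19 CPM at t3 and 23.2 ± 1.72 at t4.

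The largest loss in abundance was measured for Lacbi1.estExt_fgenesh2_pg.C_60136, the most abundant model at t1. Its level was 37841, 36961 and 35360 CPM at t1 and 28526, 29116 and 25628 CPM at t2. The log2 fold change was small, -0.40 ± 0.057 (SE; edgeR, adjusted p = 4.1e-06), yet the loss made up 6.94% of all CPM lost by fallers. Unlike estExt_fgenesh1_kg.C_150006, it did not stay low after t2, with 50277 ± 2087 CPM at t3 and 45882 ± 756 at t4. With the authors' factors, the change of Lacbi1.estExt_fgenesh2_pg.C_60136 from t1 to t2 was -0.01 (edgeR, adjusted p = 0.98). The 2 models with the largest shifts in reads were thus called with TMM and not with the authors' factors, whereas e_gw1.18.261.1 and estExt_fgenesh1_kg.C_150006 were called with both scalings.

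**Figure D4:**
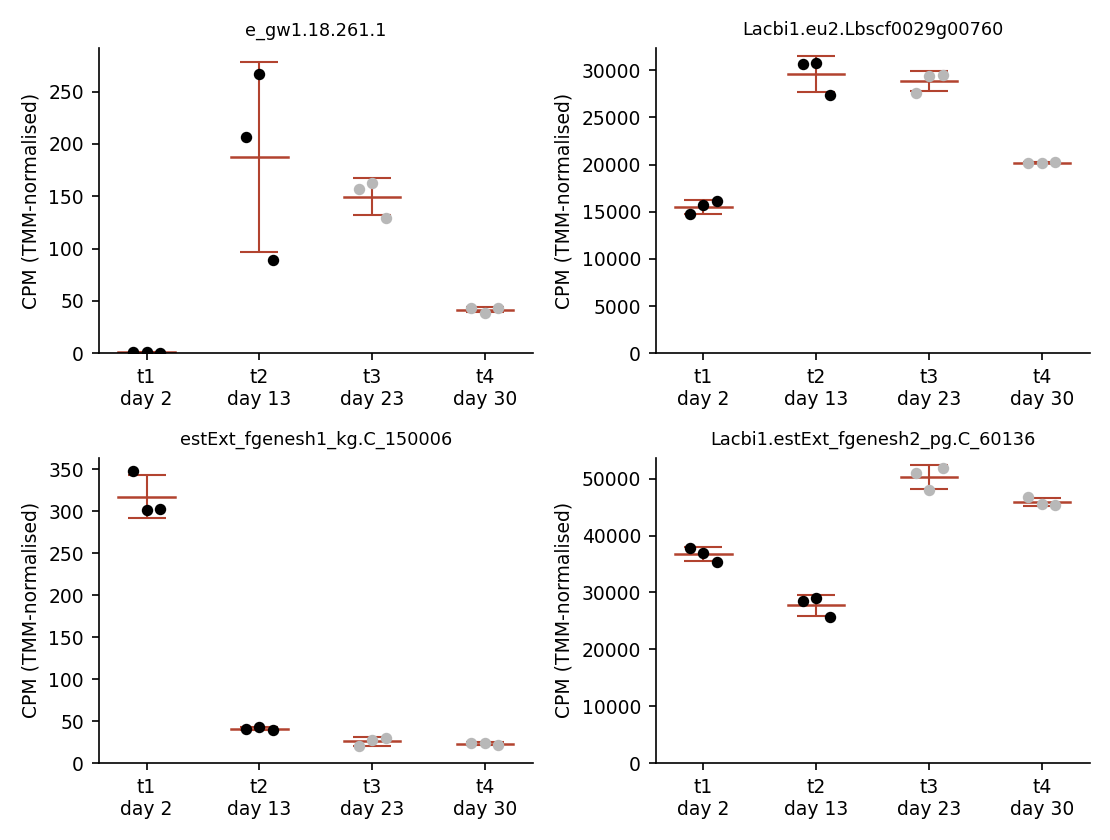
CPM of the 4 named gene models in each library (points; black for t1 and t2, grey for t3 and t4), with the mean and SD (n = 3) in red, on linear axes that start at 0. The upper panels show the rises from 0.82 to 188 and from 15527 to 29615 mean CPM, and the lower panels the falls from 317 to 40.9 and from 36721 to 27757 mean CPM between t1 and t2.

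Reads were more concentrated in the 100 most abundant models in every t2 library than in any t1 library. These shares are of unadjusted counts and were not repeated with the authors' factors. The 100 most abundant models of each library, ranked by its own counts, held 30.0%, 30.0% and 30.3% of the counts at t1 and 33.0%, 33.2% and 32.5% at t2, with a mean difference of 2.77 percentage points (exact permutation test, p = 0.10). This ranking was added after the data had been seen. With a fixed list, the 100 models with the highest mean CPM over all 12 libraries held 28.7%, 28.8% and 29.1% of the counts at t1 and 32.5%, 32.7% and 31.7% at t2. The mean difference was 3.47 percentage points, but the fixed list draws on 9 libraries after t1 and 3 at t1, which favours models that rose and stayed high. An exact permutation test over the 20 relabellings gave p = 0.10 (two-sided), the smallest value that 3 against 3 libraries allow. Of these 100 models, 51 rose (14 at least 2-fold), 20 fell (1 at least 2-fold) and 29 were not called. In the highest quintile by mean CPM, 24.9% rose (5.02% at least 2-fold) and 33.8% fell (2.93%). Part of the excess of risers in the list may come from its ranking, and this was not tested. Without Lacbi1.eu2.Lbscf0029g00760 the share of the other 99 was 27.3% ± 0.15 at t1 and 29.4% ± 0.32 at t2, again without overlap. For the 10 most abundant models of the fixed list the groups overlapped, since replicate 3 of t2 had 15.7% against 15.8% in each t1 library. The other t2 libraries had 16.8% and 16.9%. With each library's own 10, replicate 3 of t2 had 15.9%, below the 16.3%, 16.2% and 16.3% at t1, while the other t2 libraries had 17.0% each. The composition of the top changed moderately. Of the 100 most abundant models at t1, 75 were also among the 100 most abundant at t2. Of the 25 newcomers, 24 had risen and 14 of them at least 2-fold, and all 25 models that left the list had fallen. The same libraries ranked and tested these models, so the direction of these calls is built into the lists.

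At t2, the highly expressed part of the strong risers comprised 154 models (1.07% of those tested) that were also in the top 20% by mean CPM at t2. The matching count of strong fallers in the top 20% at t1 was 112 (0.78%). With the authors' factors, which also adjust the level on which the models are ranked, the count of risers was 231.

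A group of 26 identifiers ended in the label phl and a number, and 15 of them passed the count minimum. The files do not state what the label stands for. The group was chosen after its values had been seen, so it was given no test of its own. From t1 to t2, 8 of the 15 rose at FDR 1%, all by at least 2-fold (log2 1.098 to 3.39), none fell, and 7 were not called. Over all tested models 4.01% rose at least 2-fold. The median log2 fold change of the 15 was 1.32. The count minimum was taken over all 4 time points, and some of these models passed it through reads at t3 and t4, so that the 15 do not stand for all 26. The other 11 had between 0 and 121 reads over the 12 libraries.

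The clearest single change in the group was that of phl5. It had 16, 23 and 17 reads at t1 and 255, 158 and 196 reads at t2, which is a rise from 1.68 ± 0.23 to 17.7 ± 3.76 CPM (SD, n = 3; log2 fold change 3.39 ± 0.21, SE; edgeR, adjusted p = 1.1e-11). The phl6 model had 7.44, 5.05 and 6.02 CPM at t1 and 26.2, 19.6 and 18.6 CPM at t2. For phl24 the values were 6.51, 5.31 and 5.07 CPM at t1 and 22.4, 19.99 and 17.8 CPM at t2. In these 3 models every t2 library exceeded every t1 library, as was the case for 27.7% of all tested models. The 3 were picked as called risers, so their separation is largely built in. Not every member moved. The phl2 model was at 7.32 ± 1.94 CPM at t1 and 6.87 ± 0.33 CPM at t2 and was not called, and phl20 had 2 reads in total at t1 and 1 at t2. The levels were low throughout, and the 15 tested models together summed to 32.5 ± 2.95 CPM at t1 and 92.2 ± 10.1 CPM at t2. Reads that matched more than 1 model were discarded in the authors' alignment, so members with near-identical copies may be undercounted and their levels are uncertain. With the authors' factors 8 of the 15 rose, 7 of them at least 2-fold, and without any single t1 or t2 library the number that rose was 7.

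**Figure D5:**
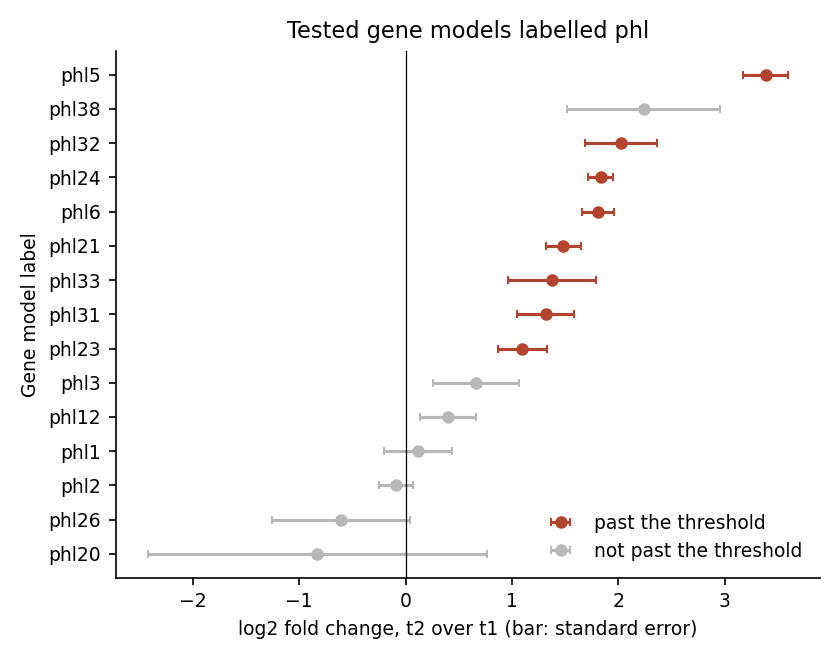
log2 fold change from t1 to t2 with its standard error for the 15 tested gene models whose identifiers end in phl and a number (y axis). The 8 models in red passed an adjusted p under 0.01 and lie between 1.098 and 3.39, and the 7 in grey did not pass.

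The step into ammonium depletion was about as large as the next step and larger than the last. From t2 to t3, a contrast that shares the t2 libraries, 2674 models rose (18.6%) and 2898 fell (20.2%), among them 469 (3.27%) and 384 (2.68%) by at least 2-fold. The median absolute log2 fold change over all tested models was 0.26 for both steps. From t3 to t4 it was 0.16, and 874 models rose (6.09%) while 1342 fell (9.35%). Relative to t1, the strong risers had a median log2 fold change of 1.37 at t2, 1.63 at t3 and 1.52 at t4. For the strong fallers these medians were -1.26, -1.45 and -1.49. The 3 contrasts share the t1 libraries, and the medians over all tested models were 0.01, 0.04 and 0.04. In *P. involutus* (strain ATCC 200175), whose libraries were tested separately, the step to t2 ran from day 2 to day 5, and so took 3 days against 11 in *L. bicolor*. It had 118 strong risers of 12032 tested models (0.981%) and 232 strong fallers (1.93%). The difference between the fungi in these counts was not tested.

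The step from t3 to t4 shares no library with that from t1 to t2, so the models of both could be counted together. Of the 2576 models that rose at t2, 281 (10.9% of them, and 32.2% of the 874 that rose from t3 to t4) rose again. From t3 to t4, 485 of them fell (18.8% of the 2576, and 36.1% of the 1342 that fell in that step). Of the 2709 fallers, 429 (15.8%, and 32.0% of those that fell from t3 to t4) fell again. Another 143 (5.28%, and 16.4% of those that rose) rose from t3 to t4. These calls compare t4 with t3 only, so they do not show a return towards the t1 level. Among the models not called at t2 the shares were 4.96% rising and 4.72% falling. Models called at t2 are better expressed than those not called, and the part of this in the overlap was not tested. Within the strong risers, 170 of 575 fell from t3 to t4 and 94 rose. The risers that fell from t3 to t4 included e_gw1.18.261.1, by 1.84 on the log2 scale, and Lacbi1.eu2.Lbscf0029g00760, by 0.51. With the authors' factors the 4 numbers were lower, with 174 risers rising again, 264 risers falling, 121 fallers falling again and 63 fallers rising. Without replicate 2 of t3, 253 fallers fell again from t3 to t4 and 94 rose.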

How the data were processed

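Raw counts per gene model were deposited by the authors, who aligned single reads with TopHat2 2.0.13 and Bowtie2 2.2.3.0 to the filtered JGI gene models (*L. bicolor* version 2.0), discarding reads with more than 1 match, and counted coding sequences by strand with HTSeq 0.6.1. The deposited factors are ratios per gene and library for length, GC content and depth and were made by the authors, as were the rlog values on a log2 scale, with EDASeq and DESeq2 1.14.1. The *P. involutus* factor and rlog tables were not used.

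Counts were tested in R 4.3.3 with edgeR 4.0.16 (TMM, quasi-likelihood F-test, all 12 *L. bicolor* libraries, Benjamini-Hochberg adjustment, FDR 1%) after a minimum mean count of 11. DESeq2 1.42.0, the authors' factors as offsets, other filters and left-out libraries were alternatives. Those that leave out a t3 or t4 library, and all those for the phl models, for opposite calls between steps and for models ranked within each library, were chosen after seeing the data. A standard error is the log2 fold change divided by the square root of F. CPM are TMM-normalised, and distances used a prior count of 2. The fit was tested on simulated data. None of the 66 library pairs was identical. Between 10797314 and 12169575 reads per library limit precision for rare transcripts.

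Named models were, among called models whose t1 and t2 libraries did not overlap, the largest log2 fold change in each direction within the top 20% by CPM (at t2 for rises, at t1 for falls), and the largest gain and loss of mean CPM. The models labelled phl fall outside this rule. The members and lists were chosen with earlier results of these data known. The sample titles do not say whether replicate numbers pair samples, and the main test used no pairing. Deviations of same-numbered t1 and t2 libraries correlated at 0.039, 0.013 and 0.077. No shared replicate effect was thus visible, which does not settle whether the numbers mark pairs.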

Additional observations from a re-analysis of the deposited data

Results flagged for a closer look

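The steps from t1 to t2 took 11 days in *L. bicolor* and 3 days in *P. involutus*. The share of reads taken by the 100 most abundant models changed in opposite directions in these fungi. With the 100 models of each fungus fixed by their mean over its 12 libraries, it rose by 3.47 percentage points in *L. bicolor* from t1 to t2, and in *P. involutus* it moved from 21.2% ± 0.17 to 20.1% ± 0.16 (SD, n = 3), a change of -1.08. The difference of 4.55 points had p = 0.005 in an exact permutation test over 400 relabellings of t1 and t2 within each fungus (two-sided), the smallest value they can give. Those 12 libraries include the ones compared, so the values tested helped to choose the models. With the models ranked within each library instead, an alternative added after the data had been seen, the changes were 2.77 and -1.78 points, and the difference of 4.54 had the same p = 0.005 (exact permutation test). With either choice, the adjusted p over the 10, 100 and 500 most abundant models was 0.0075. The relabellings assume no change in either fungus, so these tests do not ask whether the changes were equal. For the 10 most abundant models the difference was 0.64 points with the fixed list (p = 0.305, exact permutation test) and 0.67 with the ranking per library (p = 0.145, exact permutation test), so the calls differ with the number of models. For the 100 models, the t1 and t2 libraries did not overlap in either fungus (exact permutation p = 0.10 in each). All these shares are of unadjusted counts and were not repeated with the authors' factors.

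The comparisons leave out the 8778 models below the count minimum. With no filter (4489 of them had at least 1 read), 35 rose and 15 fell from t1 to t2 at FDR 1% in edgeR. Over the tested models 17.9% rose and 18.9% fell. In the same unfiltered fit 2490 models rose and 3097 fell in all. How many of the 35 and 15 are false calls was not tested. The 35 had between 12 and 95 reads in total over the 3 t2 libraries, and 2 of them had no read in any t1 library.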

How the results depend on the processing

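Counts of called models stayed within 1.5 times their values under every alternative: 2060 to 3388 rising, 2124 to 3447 falling, 527 to 602 rising and 229 to 328 falling at least 2-fold. With the authors' factors as offsets, 1755 of the 2576 risers and 1865 of the 2709 fallers were called in the same direction, and 2 and 8 in the opposite one. Their 231 highly expressed strong risers compare with 154, and the top 10% in place of the top 20% left 107. With these factors the shared calls with the step from t3 to t4 were 174 (rising) and 121 (falling), the log2 fold change of Lacbi1.eu2.Lbscf0029g00760 was -0.1048 and that of Lacbi1.estExt_fgenesh2_pg.C_60136 was -0.0095; the cause was not tested. Leaving out 1 library gave 201 to 284 shared rises and 253 to 478 shared falls. The replicate block gave 2579 rising and 2705 falling models, 571 and 252 at least 2-fold, and changed no call of a named model. Whether the replicate numbers pair the samples is not known. The share on the 100 most abundant models rose by 3.28 to 3.76 points with 1 library left out, by 0.66 for 10 models, by 1.84 for 500 and by 2.77 with each library's own 100. With 3 libraries per time point, a fall or rise in models of few reads was detectable only where it was large.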

Other observations

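Identifiers also show by which gene prediction a model was made, and the calls varied with it. Of 2899 tested models from fgenesh predictions marked kg, 20.04% rose and 22.7% fell at t2, and of 1559 marked pg, 21.6% rose and 11.7% fell. The median level was 33.2 CPM in the first class and 13.0 CPM in the second, and the part of level in this was not tested. Strong rises were 4.73% and 5.07%, close to the 4.01% over all tested models.

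In 4678 tested models the identifier names 1 of 10 linkage groups. Strong risers made up 3.91% of them, from 2.38% of 1218 models on linkage group 1 to 12.05% of 166 models (20) on linkage group 7. Linkage group 7 was singled out after the values were seen and was given no test.

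A model labelled as a C4-methyl sterol oxidase, an enzyme of sterol synthesis, was at 1.38 ± 0.40 CPM at t1 and 1.25 ± 0.50 CPM at t2 (SD, n = 3) and was not called (edgeR, adjusted p = 0.80).

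Within the time points, the strongly changed models did not sit evenly over the replicates. Replicate 3 of t2 was the lowest t2 library for 50.4% of the 575 strong risers, against 35.0% of all tested models. Replicate 1 of t1 was the highest t1 library for 61.8% of the 249 strong fallers, against 36.4% of all. Without these libraries in turn, the strong risers numbered 574 and 531 and the strong fallers 272 and 229.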
